A study of Mus musculus with 4 samples.

Results

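Thymic stromal lymphopoietin (Tslp) and 5 genes that encode cytokine receptors, its own among them, were followed across the cells of mouse epidermis after loss of ΔNp63. The 6 genes were taken by name from the 32285 genes of each matrix: the ligand Tslp, its receptor chain Crlf2, the interleukin 7 receptor chain Il7r, the interleukin 4 receptor chain Il4ra, the interleukin 13 receptor chain Il13ra1, and Il22ra2, which encodes a secreted protein that binds interleukin 22. All 6 were found in all 4 libraries and all 6 had enough UMIs to be compared in keratinocytes. Every mouse was homozygous for floxed ΔNp63 alleles (DNp63fl/fl). Control mice carried nothing more, and the experimental mice, called ablated here, also carried K14-CreT2, a tamoxifen-activated Cre recombinase driven by the promoter of keratin 14, a keratin of basal keratinocytes. Both genotypes were given tamoxifen by gavage at 200 mg/kg on each of 5 days, so the drug is common to all groups. Cells were collected 1 day or 1 week after ablation. Males and females aged 2 to 17 months were used, and epidermis was released with 0.25% trypsin either overnight at 4 °C or for 2 hours at 37 °C. The labels do not say which age, sex or digestion went into which library, nor how many mice were pooled.

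TSLP is a cytokine released by epithelial cells, and in skin keratinocytes are its main known source. It is bound by a pair of receptor chains, one encoded by Crlf2 and the other by Il7r, which is shared with interleukin 7. Dendritic cells, T cells, mast cells and innate lymphoid cells are known to respond, and in skin the cytokine is known for priming type 2 responses, in which interleukins 4 and 13 act back on keratinocytes. Interleukin 4 uses IL4RA with the common gamma chain (encoded by Il2rg) on blood cells, and interleukins 4 and 13 share a receptor of IL4RA with IL13RA1 on epithelial cells. The product of Il22ra2 is a soluble decoy that keeps interleukin 22 from its receptor on keratinocytes.

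The design had 4 libraries, 1 per genotype and time, so no comparison has a replicate and none was tested. Levels are given as counts per 1000000 UMIs (CPM): the UMIs (unique molecular identifiers, 1 for each captured RNA molecule) of a gene divided by all gene UMIs of the same cells. Ranges in brackets after a level, ratio or share are 95% intervals, exact Poisson for levels, exact conditional for ratios and Clopper-Pearson for shares, and they cover counting error only. The 1-day libraries were read from the 3′ end of transcripts and the 1-week libraries from the 5′ end, so levels were compared only within a time. Total counts ran from 68191870 to 179736563 UMIs per library, and 15639 to 23741 cells per library were used, with median UMIs per cell of 1381 to 4160. The deposited barcodes began at 500 UMIs in both controls. In the ablated libraries they began at 1368 UMIs at 1 day and 1059 at 1 week, so ablated cells below these counts are absent. The 2 libraries of a time shared 299 barcodes at 1 day (0.891% and 0.928% of the control and ablated barcodes) and 661 at 1 week (2.64% and 3.59%). Clusters were named from fixed markers. At 1 day 21121 control and 17962 ablated cells were keratinocytes, and at 1 week 7643 control and 3131 ablated ones. A cluster led by Krt8 and Krt18, keratins of simple epithelia, was kept apart: it held 5015 ablated cells at 1 day against 2 control cells, and 496 against 0 at 1 week. The 13 genes of the keratinocyte list summed to 30980 CPM in it at 1 day, against 41358 in control keratinocytes. In control and ablated T cells they summed to 5566 and 20550 CPM. Detection alone does not tell these sets apart, since all 13 were also detected in T cells. Of the 10 Merkel cell markers 5 were detected in the cluster at 1 day, against 7 in control keratinocytes. Krt20, Atoh1, Isl1 and Chga were at 0 in it at both times. It is called Krt8-led after its leading gene. At 1 week, low-UMI clusters held 11461 of 19915 control cells and 10995 of 15639 ablated cells, and these are given apart as well.

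Trp63, the targeted gene, was counted over all its transcripts together, read from the 3′ end at 1 day and the 5′ end at 1 week. The sources used here do not give the deleted part, so its level is only a partial check of the labels. In keratinocytes Trp63 was 403 CPM in control cells and 128 after ablation at 1 day (log2 ratio -1.65), and 432 and 189 at 1 week (-1.19). Krt8-led cells held 59.7 CPM at 1 day and 48.6 at 1 week. Suprabasal-like cells went the other way at 1 day, with 355 CPM in 4223 control cells and 430 in 504 ablated cells.

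In control epidermis Tslp was a low transcript with its highest level in basal-like keratinocytes, and in ablated epidermis its level was far higher. In keratinocytes the level was 16.2 CPM (15.5 to 17.0) in control cells and 148 (145 to 150) after ablation at 1 day. At 1 week it was 9.95 CPM (9.15 to 10.8) and 63.3 (60.3 to 66.5). The log2 ratio of ablated over control was 3.19 (3.12 to 3.26) at 1 day and 2.67 (2.53 to 2.81) at 1 week, and the intervals of the levels did not overlap at either time. With a gene called when it differed at least 2-fold with at least 20 UMIs over both libraries, 2 of the 6 genes were called higher at 1 day, Tslp and Il7r, against 8.21% of all 14980 genes compared. At 1 week 1 of 6 was, Tslp, against 12.6% of 14658. None was called lower, against 2.88% and 5.64%. How the cells were delimited moved the 1-week value: it was 4.25 without doublet removal, 4.16 with coarser clustering and 0.01 in hair follicle-like cells alone, and each of these choices changes which cells of both libraries count as keratinocytes. At 1 day the same choices gave 3.62, 3.18 and 2.03. Without doublet removal 8348 control and 9259 ablated cells of at least 1000 UMIs were keratinocytes at 1 day, against 20658 and 17962 with it.

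Krt8-led cells had the highest Tslp level of any named set in both ablated libraries, with 635 CPM (624 to 646) at 1 day, and 537 (520 to 554) a week after ablation. At 1 day the order below them was basal-like (272 CPM), keratinocytes without a class (168), T cells (165), suprabasal-like (109), granular-like (46.3), hair follicle-like (34.0), mixed stromal (32.3), Langerhans cells (20.9) and sebaceous-like cells (18.3). Neighbours in this order did not overlap, except keratinocytes without a class with T cells, and the last 4 sets each with the next. This order rested on few cells. In T cells 3 of 223 cells held 75% of the Tslp UMIs, and in basal-like cells 55 of 1868 held 70.3%. Without cells of 10 or more Tslp UMIs, T cells were at 42.0 CPM, basal-like cells at 84.5 (78.3 to 91.0), keratinocytes without a class at 77.3 (74.8 to 79.8) and suprabasal-like cells at 76.8 (64.5 to 90.7), so the last 3 overlapped, while Krt8-led cells were still above them at 168 (162 to 174). In the 1-day control, basal-like cells were highest at 28.4 CPM (26.6 to 30.3), then suprabasal-like at 16.0 (14.6 to 17.6), and every further neighbour in the order overlapped the next, down to 2.36 in sebaceous-like cells. The control order at 1 week again began with basal-like cells, at 16.8 CPM (14.9 to 18.9), but mixed stromal (13.5) and fibroblasts (10.5) overlapped them. In the 1-week ablated library keratinocytes without a class came second at 124 CPM (118 to 131), followed by granular-like cells at 20.1 (15.2 to 26.2), and from there on each set overlapped the next. The second place rested on 17 of 1161 cells, which held 78.0% of that set's Tslp UMIs, and without them the level was 28.5 CPM (25.6 to 31.8), overlapping granular-like cells. The height of the first place rested on 39 of 496 Krt8-led cells, with 93.4% of their Tslp UMIs. Without those cells Krt8-led cells were at 40.6 CPM (35.8 to 45.9), still above keratinocytes without a class. Low-UMI clusters, outside the named sets, were at 167 CPM (161 to 174) without such cells.

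**Figure D1:**
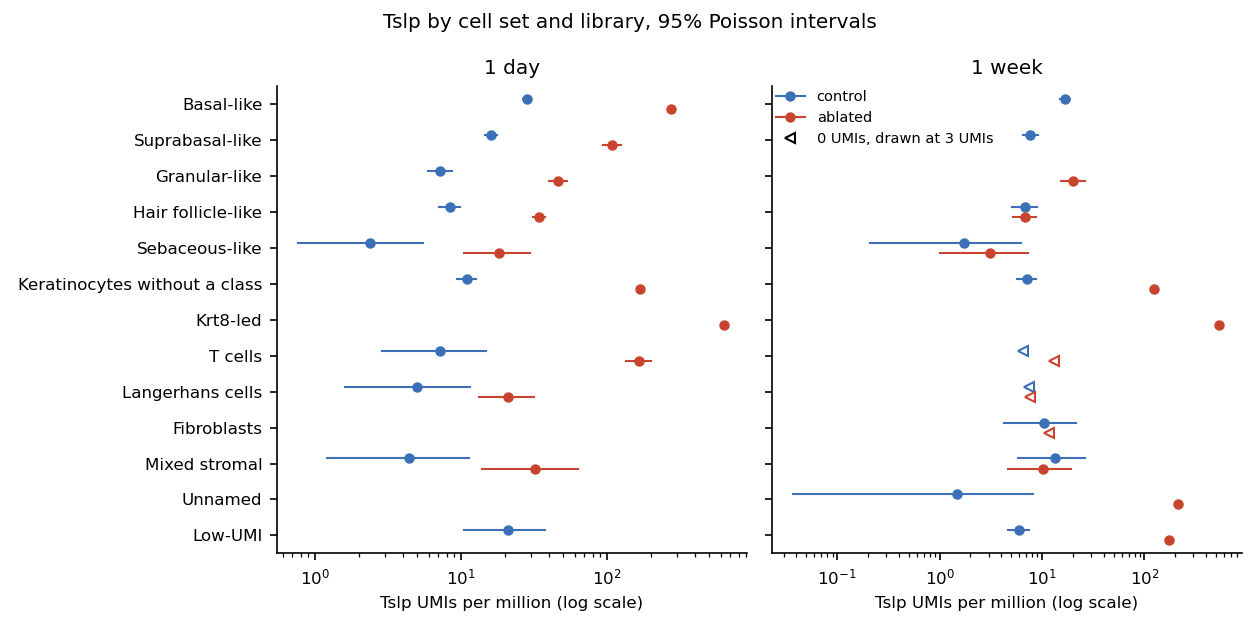
Tslp in CPM (log axis) for each cell set, in the control and ablated libraries at 1 day and 1 week; points are levels and lines their 95% Poisson intervals, which cover counting error only, and open triangles are sets with 0 UMIs drawn at the level of 3. Krt8-led cells stand at 635 and 537 CPM, while hair follicle-like cells at 1 week are at 6.78 CPM in control cells and 6.84 after ablation.

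The cells that held most Tslp UMIs differed between the genotypes. In the 1-day control, basal-like cells were 28.4% of cells and held 50.0% of the Tslp UMIs, and suprabasal-like cells held a further 24.6%. In the 1-day ablated library Krt8-led cells were 21.1% of cells and held 50.9%, keratinocytes without a class held 35.1%, basal-like cells 9.86% and hair follicle-like cells 1.80%. At 1 week the control again had basal-like cells in front with 42.8%, and in the ablated library Krt8-led cells, 3.17% of cells, held 39.5%. Low-UMI clusters held 30.3% of the 1-week ablated Tslp UMIs in 70.3% of the cells.

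Because the libraries filled the keratinocyte clusters unequally, most of all at 1 week, Tslp was also compared inside single clusters holding at least 50 cells of each library. At 1 day 12 of 13 such keratinocyte clusters had a ratio whose interval lay above 0, from 1.37 to 4.64 on the log2 scale with a median of 2.71, and the last had 0 control UMIs. Other cell types in the same table were also higher after ablation: Langerhans cells held 4.96 and 20.9 CPM of Tslp (2.07, 0.65 to 3.83), mixed stromal cells 4.42 and 32.3 (2.87, 0.97 to 5.05) and T cells 7.20 and 165 (4.52, 3.42 to 5.86). The ratios of keratinocyte clusters 4 (1.37), 7 (1.42), 8 (1.76) and 10 (2.03) were below that of Langerhans cells. Levels gave another list. After ablation clusters 4 (31.9 CPM), 6 (28.2), 7 (28.2), 8 (16.1), 13 (23.1), 17 (18.3) and 18 (12.4) were below mixed stromal cells. Clusters 1, 3, 9, 10, 11 and 12 were above them, from 38.9 to 634 CPM. The part of free RNA in these ratios and levels was not tested. Basal-like cells were split: the main control cluster (cluster 1, 4855 control and 411 ablated cells) held 33.6 and 212 CPM. The 2 clusters led by cycling genes differed from each other, with 9.50 and 38.9 CPM in cluster 10 (led by histone genes and Mki67; 1009 and 893 cells) and 25.5 and 634 CPM in cluster 12 (led by Ube2c and Top2a; 671 and 564 cells). Cluster 12 supplied 1869 of the 2328 Tslp UMIs of ablated basal-like cells, and 70.3% of the 2328 lay in the 55 cells already given. At 1 week only 1 of 4 shared keratinocyte clusters had an interval above 0: cluster 6, led by Fst and Sostdc1, with 6.69 CPM in control cells and 125 after ablation, a log2 ratio of 4.22 (3.80 to 4.68). The other 3, hair follicle-like clusters 5 and 12 and a sebaceous-like one, had ratios from -0.49 to -0.02 with intervals that held 0. Few cells set the level of cluster 6. It supplied 1309 of the 1506 Tslp UMIs of ablated keratinocytes without a class, and 78.0% of the 1506 lay in 17 cells. Some ablated clusters had almost no control counterpart. At 1 day cluster 0 (5817 ablated and 10 control cells, led by Krt6b, Slpi and Sprr2 genes) held 204 CPM and cluster 5 (2854 and 6 cells) held 160. At 1 week cluster 24 (367 and 0 cells, led by Lce3 genes) held 125 CPM, and the unnamed Krt6b-led cluster 23 (400 and 0 cells) held 221. Of all 476 unnamed ablated cells at 1 week, 14 held 91.9% of that set's Tslp UMIs.

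Hair follicle-like cells had different ratios at the 2 times, a difference that was not tested. At 1 day Tslp was 8.36 CPM in control cells and 34.0 after ablation (2.03, 1.75 to 2.31), a ratio near the 2.07 of Langerhans cells, and at 1 week 6.78 and 6.84 (log2 ratio 0.01, -0.55 to 0.58). The same clusters held these cells in both libraries, 5073 control against 3843 ablated at 1 day and 1415 against 1352 at 1 week. Trp63 in the same cells was 331 and 188 CPM at 1 day and 404 and 204 at 1 week, so counts of the targeted gene were lower in the ablated library at both times.

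Shares of cells with at least 1 Tslp UMI were taken after thinning each cell to 1000 UMIs. In keratinocytes the thinned share was 1.51% in control cells and 7.06% after ablation at 1 day, and at 1 week it was 0.905% and 3.10%. Unthinned shares were 6.32% and 18.4% at 1 day, at median depths of 4367 and 3369 UMIs, and 5.52% and 10.5% at 1 week, at 5991 and 5438. Among the named sets Krt8-led cells had the highest thinned share, 17.6% at 1 day and 10.3% at 1 week. The low-UMI clusters of the 1-week ablated library had a higher share than this 10.3%. T cells and Langerhans cells are set beside these as cell types that are not known to make Tslp. At 1 day T cells had a thinned share of 0.942% in control cells and 4.48% after ablation (unthinned 0.967% and 10.8%, median depths 1218 and 2169), and Langerhans cells 0.529% and 1.30% (unthinned 1.29% and 3.90%, depths 2418 and 2174). Keratinocyte markers in these T cells summed to 5566 CPM in control cells and 20550 after ablation, and the part of free RNA or of caught keratinocytes in the T cell share was not tested. The 1-day ablated shares of Krt8-led, basal-like (10.9%), suprabasal-like (8.73%) and unclassed keratinocytes (8.76%) were above those of both immune sets. Those of granular-like (2.59%) and hair follicle-like cells (2.94%) lay between the Langerhans and T cell shares, and that of sebaceous-like cells (0.606%) was below both and is not read as expression. At 1 week no Tslp UMI was seen in 222 and 110 T cells or in 107 and 57 Langerhans cells. Taking 3 cells of the total as the limit that a count of 0 allows, up to 1.35%, 2.73%, 2.80% and 5.26% of such cells could hold a Tslp UMI in these sets, in the same order.

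Cells with many Tslp UMIs held most of the transcript in the ablated libraries. A fixed limit is passed more often where the mean or the depth is higher, and whether Tslp was spread less evenly than in controls was not tested. In the 1-day ablated library 491 of 23741 cells (2.07%) had at least 10 Tslp UMIs and held 65.8% of all Tslp UMIs, against 10 of 23047 control cells (0.0434%) with 8.67%. At 1 week 77 of 15639 ablated cells (0.492%) held 62.4%, against 4 of 19915 control cells with 10.7%. The highest single cell had 217 UMIs at 1 day and 581 at 1 week in the ablated libraries, and 23 and 25 in the controls. At least 50 UMIs were counted in 85 cells at 1 day and 44 at 1 week, all in ablated libraries. Among Krt8-led cells 276 of 5015 (5.50%) passed 10 UMIs at 1 day and 39 of 496 (7.86%) at 1 week, with 75.3% and 93.4% of that set's Tslp UMIs. Keratinocytes outside that cluster had 212 such cells of 17962 at 1 day and 17 of 3131 at 1 week. With these cells left out, Tslp in keratinocytes was 14.8 CPM in control cells and 66.5 after ablation at 1 day, and 8.74 and 18.1 at 1 week. Krt8-led cells then held 168 and 40.6 CPM. The cells past 10 UMIs were deeper than the rest: in ablated keratinocytes their median was 6375.5 UMIs against 3348 at 1 day and 31139 against 5379 at 1 week. In Krt8-led cells it was 4103 against 3459 and 17978 against 12551. The part of depth or of remaining doublets in this was not tested. In low-UMI clusters at 1 week 1704 ablated barcodes held Tslp and 7 had 10 or more UMIs, with 3.95% of those clusters' Tslp UMIs. Their other barcodes had a median of 1418 UMIs, a depth at which this limit is harder to pass.

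**Figure D2:**
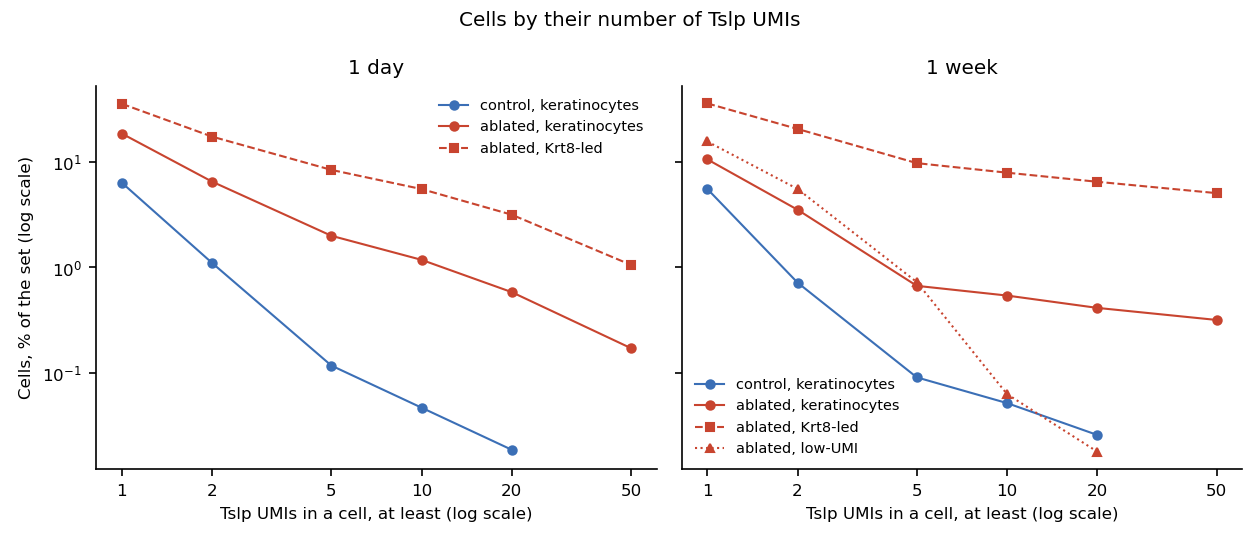
Percent of the cells of a set (log axis) with at least 1, 2, 5, 10, 20 and 50 Tslp UMIs (log axis), at 1 day and 1 week, for control and ablated keratinocytes, ablated Krt8-led cells and, at 1 week, ablated low-UMI clusters; steps with no cell are not drawn. At 10 UMIs ablated Krt8-led cells stand at 5.50% and 7.86%, ablated keratinocytes at 1.18% and 0.543%, and control keratinocytes at 0.0473% and 0.0523%.

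Krt8-led cells with many Tslp UMIs also held more Krt8, Nppb, Sprr2a3, Krt14 and Il24, genes chosen after their values were seen. At 1 day Krt8 was 1606 CPM in the 3251 cells with no Tslp UMI, 1994 in the 1488 with 1 to 9 and 2470 in the 276 with 10 or more. Nppb, which encodes a natriuretic peptide, was 170, 286 and 873 CPM over the same steps, and the small proline-rich gene Sprr2a3 223, 400 and 663. Krt14, the basal keratin, was 5600, 7126 and 11201 CPM, so the cells with most Tslp also had most of this basal transcript. Il24, an interleukin 10 family cytokine of keratinocytes, was 8.77, 10.7 and 55.5 CPM. At 1 week the same genes were highest in the 39 cells with 10 or more Tslp UMIs: Krt8 was 1204, 1271 and 2638 CPM, Nppb 398, 548 and 1727, and Il24 10.3, 8.49 and 420. Not every gene read in these cells rose. Klk5, a protease gene, was 101, 108 and 91.7 CPM at 1 day and 621, 655 and 181 at 1 week. Il22ra2 was 77.4, 75.9 and 71.6 CPM at 1 day and 144, 158 and 102 at 1 week. Trp63 did not follow 1 direction: it was 57.5, 63.2 and 62.7 CPM in Krt8-led cells at 1 day and 44.6, 39.0 and 90.3 at 1 week. In 1-day ablated keratinocytes Trp63 was 136, 108 and 53.1 CPM.

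Tslp was also compared between cells without and with a Trp63 UMI, with each cell of at least 2000 UMIs weighted by its chance of showing one when thinned to that depth. In 1-day ablated keratinocytes Tslp was 159 CPM in cells without and 100.3 in cells with a Trp63 UMI, while control keratinocytes were at 15.5 and 16.6. Basal-like ablated cells, most of them in the cycling clusters 10 and 12, were at 324 and 129 CPM. Few cells set these levels: without the 205 ablated keratinocytes of at least 10 Tslp UMIs they were 65.3 and 54.4 CPM, and without the 54 such basal-like cells 90.3 and 53.4. Hair follicle-like ablated cells held 33.0 and 41.0 CPM, but 30.3 and 26.6 without 2 cells, and Krt8-led cells 625 and 595, or 159 and 184 without 254 cells. At 1 week ablated keratinocytes were at 70.1 and 46.1 CPM, and at 18.7 and 15.5 without 17 cells. Krt8-led cells at 1 week went the other way, with 488 CPM without and 1089 with a Trp63 UMI, but 40.6 and 42.9 without 39 cells. At 1 day the order in hair follicle-like and Krt8-led cells thus turned with the few cells of highest Tslp. A cell with no Trp63 UMI at this depth may still hold the transcript.

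The genes whose levels followed Tslp most closely were found by Pearson correlation of log2 levels over clusters and libraries, 37 cluster-by-library units of at least 50 cells at 1 day and 73 at 1 week, taking the lower r of both times among 14139 genes. The leading 5 were Sprr2a3 (r = 0.89 and 0.71), Nppb (0.89 and 0.70), Ttc39a (0.72 and 0.68), 2610528A11Rik (0.67 and 0.67) and Krt18 (0.77 and 0.67). Of the 73 units 42 were low-UMI clusters. Without low-UMI clusters, an alternative chosen after seeing the data, 36 and 31 units remained and the leading 5 were Krt8 (r = 0.81 and 0.78), Krt4 (0.79 and 0.77), Sprr2a1 (0.76 and 0.77), Nppb (0.89 and 0.75) and Krt18 (0.77 and 0.75). The units share libraries and depth, so these are descriptions. Of the receptor genes Il22ra2 ranked highest, at 84 (r = 0.80 and 0.45) over all units and at 14 (0.81 and 0.65) without low-UMI clusters. Over all units it was followed by Il13ra1 at 918, Il4ra at 2080, Il7r at 6740 and Crlf2 at 8595.

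The 1-day libraries also carried antibody hashtags, of which 3 of 4 were in use. The labels do not say what each hashtag marks, and 1 led all others by at least 3 times in only 26.6% of control and 13.0% of ablated cells. In keratinocytes split by leading hashtag, Tslp was 8.95, 28.4 and 12.2 CPM in the control and 61.8, 270 and 53.7 in the ablated library, with hashtags 1, 2 and 3 in that order. The groups do not overlap, and hashtag 2 was highest in both libraries. Krt8-led cells held 622, 1226 and 185 CPM. Hair follicle-like cells did not repeat this, with 14.8, 10.0 and 7.18 CPM in the control against 34.6, 12.0 and 36.4, where the groups overlap and hashtag 2 was lowest after ablation. The values of Il4ra, Il13ra1 and Il22ra2 across hashtags in keratinocytes were also apart between the libraries, while those of Crlf2 and Il7r overlapped. For Il4ra, Il13ra1 and Il22ra2, however, some intervals overlapped between the libraries. With hashtag 2, Il4ra was 32.7 CPM (29.6 to 35.9) in the control and 33.6 (29.6 to 38.1) in the ablated library.

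**Figure D3:**
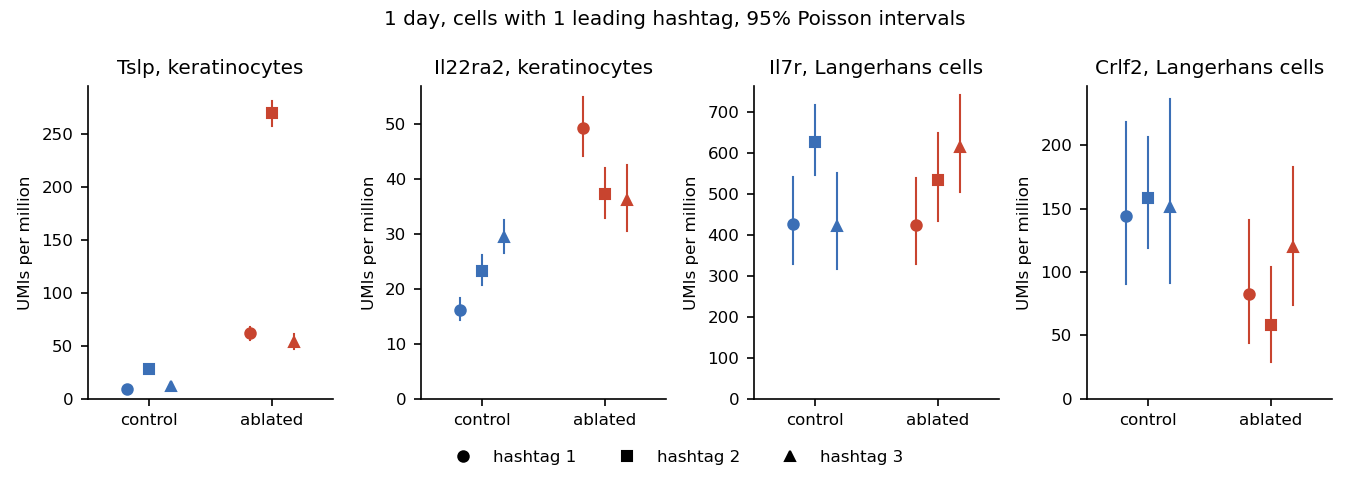
Levels at 1 day (CPM, linear axes from 0) of Tslp and Il22ra2 in keratinocytes and of Il7r and Crlf2 in Langerhans cells, for cells led by each of 3 hashtags (circle, square and triangle), control and ablated; lines are 95% Poisson intervals. Tslp spans 8.95 to 28.4 CPM in the control and 53.7 to 270 in ablated keratinocytes, with hashtag 2 highest in both.

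Both chains of the Tslp receptor reached their highest levels in Langerhans cells, the dendritic cells of the epidermis, although in the 1-week ablated library their intervals overlapped those of T cells. In Langerhans cells the intervals of the ablated over control ratios of CPM held 0. Il7r in Langerhans cells was 543 CPM in control cells and 547 after ablation at 1 day (log2 ratio 0.01, -0.16 to 0.18), and 293 and 320 at 1 week (0.13, -0.25 to 0.50). Crlf2 was 138 and 110 CPM at 1 day (-0.33, -0.69 to 0.03) and 138 and 147 at 1 week (0.10, -0.46 to 0.66). Per 100 UMIs of Cd207, the Langerhans cell lectin, the 1-week levels did not overlap: Il7r was 3.17 (2.62 to 3.80) in control cells against 7.46 (6.22 to 8.89), and Crlf2 1.49 (1.12 to 1.94) against 3.44 (2.61 to 4.44). Cd207 itself was 9233 and 4290 CPM there, so the 2 scales differ. At 1 day Il7r was 4.22 (3.87 to 4.59) and 5.00 (4.61 to 5.42) per 100 Cd207 UMIs, and Crlf2 1.07 and 1.01. Across hashtags, Crlf2 in 1-day Langerhans cells was 144, 158 and 151 CPM in the control. In the ablated library it was 82.5, 58.1 and 119 CPM, each below every control value. Intervals did overlap, as for hashtag 3 at 151 CPM (91.1 to 236) and 119 (73.9 to 183). For Il7r the values themselves overlapped. Langerhans cells were 1.69% and 1.94% of cells at 1 day but held 73.0% and 72.7% of each library's Il7r UMIs, and 34.8% and 32.9% at 1 week in 0.537% and 0.364% of cells. Their share of Crlf2 UMIs was smaller, 22.6% and 26.0% at 1 day and 12.4% and 8.68% at 1 week. Basal-like cells alone held 27.3% of the 1-day control's Crlf2 UMIs, and keratinocytes without a class 31.2% of those of the 1-day ablated library. Cells with a UMI of both chains were 72 of 389 control (18.5%) and 64 of 461 ablated Langerhans cells (13.9%) at 1 day, and 33 of 107 (30.8%) and 25 of 57 (43.9%) at 1 week, where the median depths were 3711 and 6579 UMIs. In keratinocytes both chains were seen together in at most 0.192% of cells, in the 1-week ablated library.

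The stretches of 250 bases before the start sites of these 2 genes are shown because Crlf2 and Il7r encode the 2 chains of the Tslp receptor. The start sites are those of RefSeq. The Il7r window lies inside the longer GENCODE span of that gene, whose annotated start lies further upstream. The windows are on GRCm38.p6, both on the minus strand and written 5′ to 3′ along the gene, Crlf2 at chr5:109558994-109559243 and Il7r at chr15:9529877-9530126.
Crlf2: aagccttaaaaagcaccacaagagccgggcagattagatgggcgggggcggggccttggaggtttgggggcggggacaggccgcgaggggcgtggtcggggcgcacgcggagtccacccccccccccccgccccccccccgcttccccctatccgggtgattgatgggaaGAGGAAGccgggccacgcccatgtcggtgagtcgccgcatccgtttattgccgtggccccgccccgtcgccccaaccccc
Il7r: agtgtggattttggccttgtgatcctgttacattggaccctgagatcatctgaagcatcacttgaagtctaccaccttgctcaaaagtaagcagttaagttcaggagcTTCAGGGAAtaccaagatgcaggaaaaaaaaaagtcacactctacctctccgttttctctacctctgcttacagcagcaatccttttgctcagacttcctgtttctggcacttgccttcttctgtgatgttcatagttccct
Capitals mark the only matches of 5 motifs searched on both strands: GAGGAAG, a PU.1 motif, 80 bases before the Crlf2 start, and TTCNNNGAA, a STAT motif, found as TTCAGGGAA 142 bases before the Il7r start. PU.1 is a transcription factor of myeloid cells, and STAT proteins carry cytokine receptor signals to the nucleus. The PU.1 motif occurs in 10.6% of all 32851 windows of this length and the STAT motif in 7.02%. The others were AP-1 (TGANTCA, 6.75%), NF-kB (GGGANTTCC, 1.43%) and the p53 family motif (7.13%). Of the 5 receptor genes 4 had a window, and those of Il4ra and Il13ra1 held none of the 5 motifs.

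T cells, the other immune set, held less of 3 receptor transcripts in the ablated library at 1 day, and at 1 week the ratio interval lay above 0 for Il7r only. The times were not tested against each other. Il7r in T cells was 108 CPM (88.3 to 131) in 724 control cells and 24.4 (13.9 to 39.6) in 223 ablated cells at 1 day, a log2 ratio of -2.15 (-3.004 to -1.38). The 1-week levels were 156 CPM (122 to 196) and 262 (200 to 337), a ratio of 0.75 (0.23 to 1.26). Crlf2 was 61.7 and 15.2 CPM at 1 day and 65.8 and 82.8 at 1 week (0.33, -0.58 to 1.21). Il4ra was 196 and 76.2 CPM at 1 day and 138 and 187 at 1 week (0.44, -0.15 to 1.022). For Il7r the 1-day ratio was -1.41 without doublet removal and -1.57 with coarser clustering. All 3 receptor transcripts were lower in ablated T cells at 1 day, as were the T cell markers themselves. The 11 T cell markers, all detected, summed to 12447 CPM in the control and 3913 in the ablated T cells, the 8 immune markers to 4919 and 1896, and the 13 keratinocyte markers to 5566 and 20550. The 10 Merkel cell markers, among them Krt8 and Krt18, summed to 1.03 and 575 CPM. Per 100 UMIs of Cd3e, a chain of the T cell receptor complex, Il7r was 7.39 (6.05 to 8.95) and 4.75 (2.71 to 7.71), Crlf2 4.23 and 2.97, and Il4ra 13.5 and 14.8. On that scale the intervals overlap for all 3. Tslp and Il13ra1, which were low in control T cells, were 7.20 and 165 CPM and 21.6 and 89.97 CPM at 1 day. The part of keratinocyte RNA or of T cells caught with keratinocytes was not tested. At 1 week the keratinocyte markers summed to 1082 and 610 CPM in T cells, and per 100 Cd3e UMIs Il7r was 3.29 (2.57 to 4.15) and 6.64 (5.06 to 8.54), intervals that do not overlap.

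In keratinocytes both chains were rare. Crlf2 in keratinocytes was 3.46 CPM in control cells and 3.47 after ablation at 1 day (log2 ratio 0.00, -0.23 to 0.23), and 4.38 and 7.46 at 1 week (0.77, 0.49 to 1.04). It was higher in mixed stromal cells, at 25.4 and 16.1 CPM at 1 day and 42.1 and 33.8 at 1 week, and in fibroblasts, at 19.5 and 19.3. The mixed stromal cluster at 1 week held markers of macrophages and dermal dendritic cells among others, and Il7r there was 15.2 CPM and 36.1 (1.25, 0.15 to 2.50), from 9 and 32 UMIs. Il7r in keratinocytes was 0.717 and 2.37 CPM at 1 day (1.73, 1.34 to 2.12) and 1.07 and 1.75 at 1 week (0.71, 0.12 to 1.29). The 1-day difference rested largely on cluster 5, with 93 of the 184 ablated Il7r UMIs at 12.5 CPM. Without cluster 5, keratinocytes held 0.709 CPM (0.563 to 0.883) in control cells and 1.30 (1.04 to 1.59) after ablation, below 2-fold. The 10 Langerhans cell markers summed to 2969 CPM in that cluster, against 972 in all control and 2008 in all ablated keratinocytes. Cluster 0 was at 2119 CPM and Krt8-led cells at 2131. The immune markers summed to 96.9 CPM in cluster 5, against 10.5 and 30.4 in all control and ablated keratinocytes. They were at 21.1 in cluster 0 and 21.3 in Krt8-led cells. The part of Langerhans cell or other immune RNA in the Il7r level was not tested.

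**Figure D4:**
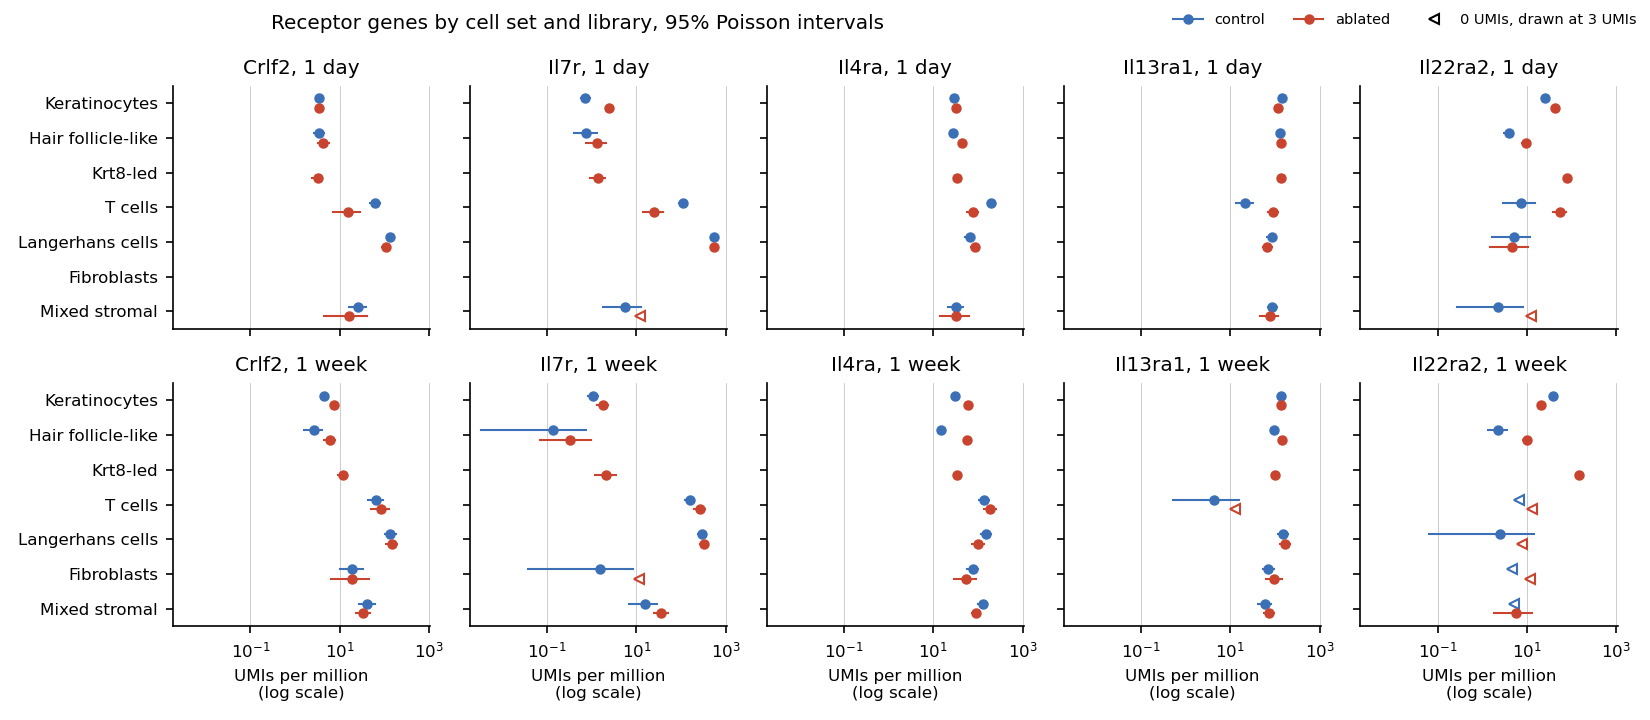
Levels of the 5 receptor genes (CPM, log axis) by cell set for the control and ablated libraries at 1 day and 1 week; points are levels, lines 95% Poisson intervals and open triangles sets with 0 UMIs drawn at the level of 3. Il7r stands at 543 and 547 CPM in 1-day Langerhans cells and at 0.717 and 2.37 in keratinocytes, while Il13ra1 lies between 119 and 142 CPM in the keratinocytes of all 4 libraries.

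Il4ra, the chain through which both interleukin 4 and interleukin 13 signal, was present in every keratinocyte set. Over all keratinocytes the ratio at 1 day was small and depended on the processing, and at 1 week it was larger. Il4ra was 29.1 CPM (28.1 to 30.1) in control cells and 32.7 (31.4 to 34.0) after ablation at 1 day, a log2 ratio of 0.17 (0.09 to 0.24). The 1-week levels were 31.2 CPM (29.8 to 32.7) and 60.4 (57.4 to 63.4), a ratio of 0.95 (0.85 to 1.05), just under 2-fold. Hair follicle-like cells held 27.7 and 43.7 CPM at 1 day (0.65) and 15.2 and 57.0 at 1 week (1.91, 1.62 to 2.22). Both libraries filled the same hair follicle-like clusters: at 1 week cluster 5, with Lgr5 and Cd34 among its leading genes, held 6.03 and 47.1 CPM and cluster 12, with Krt79 among its leading genes, 27.4 and 66.6. Keratinocytes without a class held 49.7 and 31.3 CPM at 1 day (-0.67, -0.79 to -0.54) and 42.5 and 79.4 at 1 week (0.90), but they were different cells: at 1 day 2795 of the 3687 control cells lay in cluster 4, and 5817 and 2854 of the 10771 ablated cells in clusters 0 and 5. In cluster 4, which both libraries filled, Il4ra was 56.2 and 60.7 CPM (0.11, -0.06 to 0.28). At 1 day 6 of 13 shared keratinocyte clusters had an interval above 0 for Il4ra and 0 had one below, and at 1 week 3 of 4. In the 1-day main basal-like cluster it was 34.1 and 28.0 CPM, an interval that held 0. The 1-day ratio was 0.03 without doublet removal and 0.07 without mitochondrial and ribosomal genes, and both intervals held 0. At 1 week the ratio without doublet removal was 0.56. Krt8-led cells held 34.1 CPM at 1 day and 33.6 at 1 week. In Langerhans cells Il4ra was 65.5 and 86.3 CPM at 1 day and 150 and 102 at 1 week, and both intervals of the ratio held 0.

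Il13ra1, the partner of Il4ra in the epithelial receptor, had a level over all keratinocytes that differed little between the libraries. It was 142 CPM and 119 at 1 day (log2 ratio -0.25, -0.29 to -0.21) and 135 and 137 at 1 week (0.02, -0.04 to 0.08). At 1 day the shared clusters spread to both sides, with 2 of 13 above 0, 1 below and 10 whose intervals held 0, so the difference over all keratinocytes was not seen inside most clusters. Hair follicle-like cells were at 130 and 135 CPM at 1 day and 94.4 and 143 at 1 week (0.60, 0.46 to 0.73). Sebaceous-like cells had the lowest control levels among keratinocyte sets at 1 day, 48.2 CPM. In 1-week T cells Il13ra1 was 4.39 CPM (2 UMIs) and 0. Keratinocytes with a UMI of both Il4ra and Il13ra1 were 7.75% of control and 5.66% of ablated cells at 1 day, at median depths of 4367 and 3369 UMIs, and 12.6% and 17.9% at 1 week, at 5991 and 5438. T cells with a UMI of both Il4ra and Il2rg were 11.5% and 9.87% at 1 day, and a week after ablation 18.0% and 25.5%. It was seen with Il13ra1 in 0.691% and 5.38% of T cells at 1 day, the latter beside the keratinocyte markers of that set, and in 0 of 222 and 0 of 110 at 1 week.

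Il22ra2 was highest in basal-like cells in the controls, and its ratio over all keratinocytes differed in sign between the times. In keratinocytes it was 25.1 CPM in control cells and 42.0 after ablation at 1 day (log2 ratio 0.74, 0.67 to 0.82), and 37.7 and 20.4 at 1 week (-0.89, -1.03 to -0.75). Over all cells it was 24.6 and 48.2 CPM at 1 day (0.97) and 37.9 and 46.1 at 1 week (0.28), so the sign at 1 week turned with the cells that were counted. Of 4 shared keratinocyte clusters at 1 week, 1 had an interval above 0, 0 had one below and 2 had intervals that held 0. The last, cluster 5, had 0 control UMIs. The lower 1-week level over all keratinocytes was thus not seen inside these clusters. At 1 day 5 of 13 had an interval above 0 and 0 had one below. Control basal-like cells held 54.9 CPM at 1 day and 84.4 at 1 week, and 62.7% and 51.8% of their libraries' Il22ra2 UMIs. At 1 week 2244 control keratinocytes were basal-like against 15 ablated ones, and the Krt8-led cells, which are outside the keratinocyte set, held 143 CPM (135 to 152) and 38.6% of the ablated UMIs. At 1 day Krt8-led cells held 76.5 CPM. The main basal-like cluster at 1 day was at 59.4 and 53.8 CPM, an interval that held 0, whereas suprabasal-like cells held 21.9 and 69.0 (1.65, 1.37 to 1.93) and the granular-like cluster 9 held 8.41 and 23.1 (1.46). Hair follicle-like cells had little, 3.89 and 9.31 CPM at 1 day and 2.26 and 9.82 at 1 week. In immune cells and fibroblasts Il22ra2 was at or near 0 at 1 week, with 1 UMI in total. At 1 day Langerhans cells held 4.96 and 4.54 CPM and T cells 7.20 and 53.4, the latter beside the keratinocyte markers already given.

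The wider pathway was read from 5 lists of 67 genes, of which 52 had enough UMIs in keratinocytes at 1 day and 53 at 1 week. At 1 day 8 were at least 2-fold higher after ablation and 2 lower, beside 8.21% and 2.88% of all genes, and at 1 week 10 and 6, beside 12.6% and 5.64%. The same shares over all genes stand beside the counts of each single list below. The median log2 ratio over the list genes was 0.08 at 1 day and 0.12 at 1 week, against 0.02 and 0.19 over all genes compared. The keratinocyte sets held different cells, most of all at 1 week, with 2244 control against 15 ablated basal-like cells and 2132 against 5 suprabasal-like ones, and Krt10, a suprabasal keratin, at 5601 and 735 CPM. The list genes were not compared inside shared clusters, and the part of this shift in their ratios was not tested.

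Among 12 cytokine genes only 3 could be compared at 1 day and 4 at 1 week, and Il4, Il5, Il9, Il25 and Il31 were among those with too few UMIs. Il24 was 5.39 CPM in control and 16.9 in ablated keratinocytes at 1 day (log2 ratio 1.65) and 1.07 and 31.4 at 1 week (4.88, 4.501 to 5.28). Il33, an alarmin stored in keratinocyte nuclei, went the other way, at 119 and 77.6 CPM at 1 day (-0.61) and 67.1 and 8.62 at 1 week (-2.96, -3.16 to -2.77). In Krt8-led cells, however, Il33 was 279 CPM at 1 day and 90.02 at 1 week. Il13, a cytokine of T cells, was 0.385 and 0.155 CPM in 1-week keratinocytes from 22 and 4 UMIs, and its interval held 0.

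Of 12 receptor partners 2 were called higher at 1 day and 1 lower, and of 11 compared at 1 week 4 were higher and 1 lower. Il22ra1, the signalling receptor for interleukin 22 and Il24, was 0.204 and 0.683 CPM at 1 day (1.75), from 23 and 53 UMIs, and 1.58 and 6.33 at 1 week (2.01). Il20ra, which pairs with the Il20rb chain, was 3.88 and 0.761 CPM (-2.35) and 7.45 and 0.621 (-3.58). At 1 week Il13ra2, a decoy receptor for interleukin 13, was 2.28 and 9.28 CPM (2.03), Il10rb 5.40 and 15.9 (1.56), and Il31ra, the itch cytokine receptor, 16.2 and 33.1 (1.03). Il1rl1, the receptor for Il33, was called higher at 1 day from 0.230 and 0.671 CPM, with 26 and 52 UMIs.

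Among 13 JAK-STAT genes 0 were called at 1 day and 1 at 1 week. That was Socs3, a feedback inhibitor of cytokine receptors, at 44.6 and 66.0 CPM at 1 day (0.57) and 92.0 and 254 at 1 week (1.47). Stat6, which carries the interleukin 4 and 13 signal, was 24.0 and 25.3 CPM at 1 day (0.08) and 42.2 and 43.4 at 1 week (0.04).

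Of 12 type 2 effector genes, 6 could be compared at 1 day, with Ccl17 and Ccl22 higher and Ccl8 lower, and 7 at 1 week, with Ccl22, Postn and Alox15 higher. Ccl17 and Ccl22 encode chemokines that attract T cells, and both were scarce in keratinocytes: Ccl22 was 0.0886 and 2.93 CPM at 1 day and 0.508 and 2.06 at 1 week. Cd207, the Langerhans cell lectin, was 13.9 and 34.6 CPM in the same 1-day keratinocytes, and Ccl22 itself 22.8 and 535 CPM in Langerhans cells. The part of Langerhans cell RNA in the keratinocyte value was not tested. Postn, the matrix protein periostin, which is also a hair follicle marker here, was 196 and 208 CPM at 1 day and 208 and 536 at 1 week (1.36). Alox15 rested on 1 and 19 UMIs.

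All 18 genes known to regulate Tslp in keratinocytes could be compared, with 3 called higher at 1 day and 0 lower, while at 1 week 1 was higher and 3 were lower. Klk5, a protease that acts on the receptor encoded by F2rl1, was 61.6 and 312 CPM at 1 day (2.34, 2.30 to 2.38) and 77.2 and 193 at 1 week (1.32). Spink5, the inhibitor of this protease, was 602 and 1498 CPM at 1 day (1.32) and 512 and 963 at 1 week (0.91), and Notch2 was 30.7 and 74.8 CPM at 1 day (1.28). At 1 week Orai1, a calcium channel subunit, was 104 and 52.1 CPM (-1.003), the interleukin 1 receptor Il1r1 24.7 and 11.7 (-1.08), and the transcription factor Gata3 194 and 68.3 (-1.50). F2rl1 itself was 94.6 and 69.3 CPM at 1 day and 106 and 72.7 at 1 week. Vdr, the vitamin D receptor, was 116 and 125 CPM at 1 day (0.11) and 74.6 and 132 at 1 week (0.83).

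**Figure D5:**
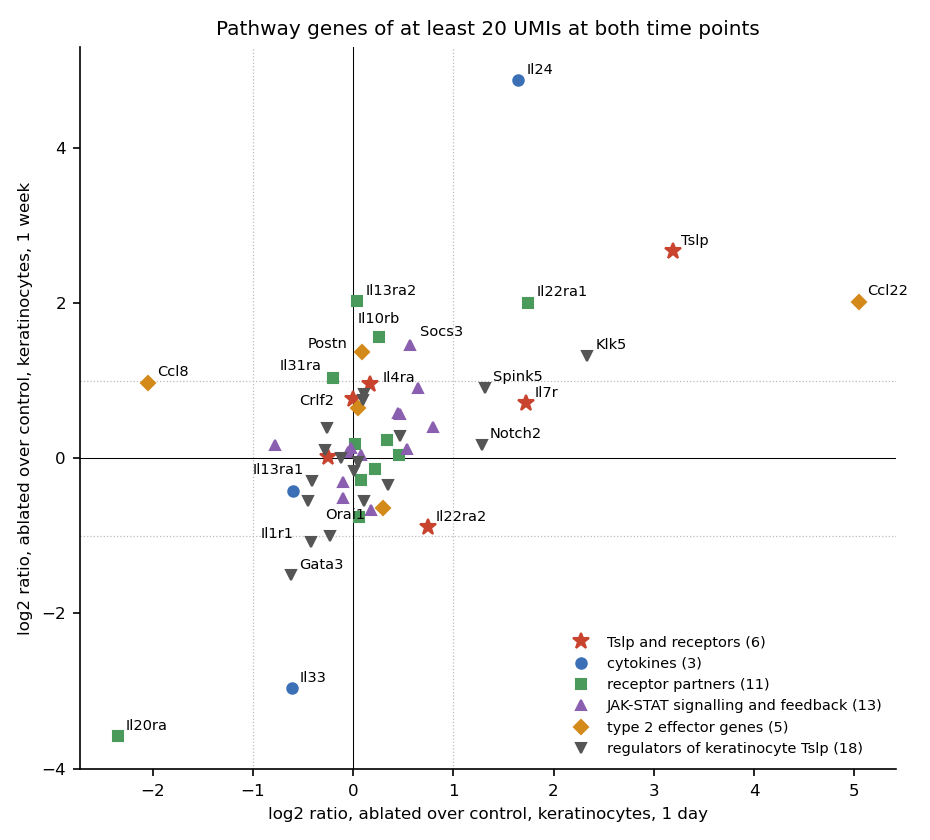
Log2 ratio of ablated over control keratinocytes at 1 day (horizontal) and 1 week (vertical) for the 6 genes and the list genes with at least 20 UMIs at both times; each point is 1 gene, its shape and colour give the list, and dotted lines mark 2-fold. Tslp stands at 3.19 and 2.67, Il24 at 1.65 and 4.88 and Il20ra at -2.35 and -3.58.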

How the data were processed

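Single-cell RNA-seq of mouse epidermis was analysed from the deposited gene-by-cell matrices, which hold raw UMI counts made by the authors with Cell Ranger 5.0.1, per the file headers. The submitters' processing notes name the mm10 build and Seurat. The 1-day libraries used 10x 3′ v3.1 chemistry and the 1-week libraries 5′ v1.1, per the labels' protocols. Barcodes needed at least 500 UMIs and 300 genes, with no more than 15% of UMIs from mitochondrial genes. Scrublet's automatic call marked 19.4% of cells in the 1-day control and under 0.02% in the other libraries, where it did not work, so the highest scores were removed at 0.8% per 1000 cells (14.7% to 25.5% of cells). Cells of a time were clustered with scanpy 1.11.5 (2000 variable genes, 30 principal components, 15 neighbours, Leiden resolution 1) and named from fixed markers. The limits for naming were set after the data were seen, and the 6 genes and all lists were chosen with earlier results of these data known.

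Counts were summed per library and cell set. With 1 library per group there was no test. A gene was compared where both libraries together held 20 UMIs and called at a 2-fold difference. Where a set held 0 UMIs, 3 counts were used as the floor. List genes were named where called in keratinocytes at either time. Stat6, F2rl1, Vdr and the genes given by Tslp UMIs per cell fall outside that rule and were chosen after their values were seen. The genes most like Tslp were ranked on log2(CPM + 10). The 6 genes and the list genes were kept out of the genes used for clustering. The authors' gene identifiers matched GENCODE M21 for 99.61% of genes. The positions on GRCm38 are chr18:32815383-32819797 (Tslp, plus strand, up to 5 exons), chr5:109554709-109558993 (Crlf2, minus, 8 exons), chr15:9505788-9530176 (Il7r, minus, 8 exons), chr7:125552120-125579474 (Il4ra, plus, 12 exons), chrX:36112110-36171259 (Il13ra1, plus, 11 exons) and chr10:19621998-19634681 (Il22ra2, plus, 5 exons). Counts are over whole genes. Alternatives were TMM scaling (edgeR 4.0.16), no mitochondrial or ribosomal genes, mean per-cell levels, other clustering, doublet handling and cell sets, and other thinning depths.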

Additional observations from a re-analysis of the deposited data

Results flagged for a closer look

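Il7r in T cells had log2 ratios of ablated over control of opposite sign, -2.15 at 1 day and 0.75 at 1 week, and the difference between the times was not tested. The keratinocyte markers in these T cells summed to 5566 and 20550 CPM at 1 day and to 1082 and 610 at 1 week, and their part in the difference was not tested.

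Il22ra2 in keratinocytes had a log2 ratio of 0.74 at 1 day and -0.89 at 1 week, a difference that was not tested either. Basal-like cells, which held the highest control levels, were 6535 control and 1868 ablated cells at 1 day, against 2244 and 15 at 1 week.

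Low-UMI clusters of the 1-week ablated library, which stand outside the cell sets compared, held 173 CPM of Tslp (167 to 180) against 5.98 (4.68 to 7.51) in the control. Their thinned share of barcodes with Tslp was 11.6% against 0.664%, whereas 0 of 110 ablated T cells of that library had a Tslp UMI.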

How the results depend on the processing

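No paired analysis was possible because each genotype and time is 1 library. All values here are log2 ratios of ablated over control unless called shares, and none has a replicate. For Tslp in keratinocytes at 1 day (3.19) the ratio was 3.10 without mitochondrial and ribosomal genes, 2.99 as a mean per cell, 3.62 without doublet removal, 3.91 over all cells and also with Krt8-led cells counted, 2.03 in hair follicle-like cells and 2.96 as a mean over hashtags. At 1 week (2.67) it was 2.47 with TMM, 2.13 per cell, 4.25 without doublet removal, 4.16 at resolution 0.5, 4.21 over all cells, 4.07 with Krt8-led cells, 4.15 with Krt8-led and unnamed cells (chosen after seeing the data) and 0.013 in hair follicle-like cells. For Il4ra at 1 day (0.17) it was 0.075 without mitochondrial and ribosomal genes, 0.025 without doublet removal, 0.65 in hair follicle-like cells and 0.25 over hashtags, and at 1 week (0.95) 0.76 with TMM, 0.67 per cell, 0.56 without doublet removal, 0.75 over all cells, 0.80 with Krt8-led cells and 1.91 in hair follicle-like cells. For Il13ra1 at 1 day (-0.25) it was -0.30 with TMM, -0.34 without mitochondrial and ribosomal genes, -0.41 without doublet removal, -0.21 over all cells, 0.050 in hair follicle-like cells and -0.29 in cells of at least 3000 UMIs (chosen after seeing the data), and at 1 week (0.02) -0.18 with TMM, -0.22 without doublet removal, -0.040 at resolution 0.5, -0.10 over all cells, -0.071 with Krt8-led cells, -0.047 with unnamed cells as well and 0.60 in hair follicle-like cells. Il22ra2 over all cells was 0.88 at 1 day without mitochondrial and ribosomal genes (0.97), and at 1 week (0.28) 0.20 so and with TMM and 0.054 per cell. Il7r at 1 day was -2.15 in T cells, -1.41 without doublet removal and -1.57 at resolution 0.5. Over all cells it had the opposite sign, at 0.38. Most Il7r UMIs of all cells at 1 day lay in Langerhans cells, so this value describes a different cell set. Crlf2 in immune cells (-0.43 at 1 day, 0.32 at 1 week) was -2.02 in 1-day T cells alone (chosen after seeing the data) and 0.89 over all 1-week cells. At 1 day it was -0.12 (-0.38 to 0.13) without doublet removal and -0.13 (-0.46 to 0.20) at resolution 0.5, where the interval came to hold 0. In 1-day Langerhans cells alone it was -0.33 (-0.69 to 0.03), an interval that also held 0. The Tslp share differed by 5.55 points at 1 day, 9.05 thinned to 2000 UMIs, 12.1 unthinned, 8.07 with Krt8-led cells and 6.85 without doublet removal, and by 2.19 at 1 week, with 3.51, 4.99, 3.01 and 3.83 in the same order. Of the list genes 10 were called at 1 day and 16 without the minimum of 20 UMIs. The causes of these differences were not tested.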

Other observations

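Langerhans cells, the cells with most Tslp receptor transcript, also differed between the genotypes in Ccl22, a chemokine of activated dendritic cells that attracts T cells. It was 22.8 CPM in control cells and 535 after ablation at 1 day, a log2 ratio of 4.55 (3.95 to 5.22), from 23 and 589 UMIs. The share of Langerhans cells with a Ccl22 UMI was 2.31% and 9.54%. Across hashtags 1, 2 and 3 it was 13.1, 17.6 and 7.96 CPM in control cells and 774, 1584 and 222 after ablation, without overlap. At 1 week 0 control UMIs were counted against 865 ablated ones, 2198 CPM in 36.8% of cells, at least 293-fold higher with 3 counts per library as the floor. Ccl17, a chemokine for the same receptor, was at 0 in both controls and at 14.5 CPM (16 UMIs) and 22.9 CPM (9 UMIs) in the ablated libraries, at least 4.88-fold and 3.05-fold higher. These genes were singled out after their values were seen. Il13 was found in T cells, at 54.5 and 16.8 CPM at 1 day and 158 and 126 at 1 week. In the same 1-day cells the T cell markers summed to 12447 and 3913 CPM and the keratinocyte markers to 5566 and 20550. Their part in the 1-day Il13 values was not tested.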
